A study of Homo sapiens with 2 samples.

Results

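NF-kB is a family of dimeric transcription factors built from 5 subunits, and its activity is set by inhibitors that hold the dimers in the cytoplasm. The genes described here are the 5 subunits NFKB1, NFKB2, REL, RELA and RELB, the 3 IkB inhibitors NFKBIA, NFKBIB and NFKBIE, and the feedback regulators TNFAIP3 and TANK. The rule names these genes and uses no value of theirs, although the list was drawn up with earlier results of these data known. Every probe set assigned to 1 of these genes alone was used, which gave 24 probe sets of 41091 such probe sets in all, and 10 genes of 19775. The study compared MEG-01 cells, a megakaryoblastic line of chronic myeloid leukemia (CML), expressing GAS2DN with MEG-01 cells carrying the Venus control vector. GAS2DN is a truncated, dominant negative form of Growth arrest specific 2 (GAS2), a protein that restrains calpain proteases. It was delivered by a lentiviral vector that also encodes the yellow fluorescent protein Venus, the control vector encoded Venus without GAS2DN, and both cell populations were purified by flow cytometry. RNA of 3 extracts per condition was pooled in equal amounts and hybridized to 1 Affymetrix Human Genome U133 Plus 2.0 array per condition, so that no replicate error, test or p-value could be obtained for any difference between GAS2DN and Venus, and precision is limited by having 1 array on each side.

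In the canonical pathway, receptors of the tumour necrosis factor, interleukin 1 and Toll-like families activate the IKK complex, which phosphorylates IkB proteins and marks them for destruction by the proteasome, and the freed dimers enter the nucleus. In the non-canonical pathway the kinase NIK, encoded by MAP3K14, and IKK alpha drive the processing of the NFKB2 product p100 to p52, which pairs with RELB. NF-kB induces several genes of its own circuit, among them those for IkB alpha, p100, c-Rel and A20, so their RNA is often read beside the activity of the pathway. In CML cells NF-kB has been described as active downstream of BCR-ABL. The arrays measured RNA in bulk, in which fewer cells of a type and less RNA per cell cannot be told apart, and they did not measure IkB degradation, p100 processing or nuclear entry.

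The promoters of the members are shown because several of these genes are known targets of NF-kB itself, and because both members whose probe sets differed widely and members whose signals were nearly equal carry a match. RefSeq promoters of GRCh38.p14, each 300 bases long with 250 bases before and 50 after a start site, were found for 8 of the 10 members, in 14 promoters. They were searched on both strands for the kB consensus decamer. Overlapping matches were merged and counted as 1, with the first decamer shown. A match was present in 8 of the 14 promoters and in 7 of the 8 members, against 11.3% of all 35116 promoters and 13.3% of 27305 genes. RELA was the member whose promoters held no match, and RELB and NFKBIE had no entry. Matches before a start site are printed 5′ to 3′ on the strand of the gene, with the match in capitals, in windows of 30 bases.
NFKB1, chr4:102501300-102501329, plus strand: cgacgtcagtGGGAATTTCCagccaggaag
NFKB2, chr10:102394461-102394490, plus strand: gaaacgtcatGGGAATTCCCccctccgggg
NFKB2, chr10:102394490-102394519, plus strand: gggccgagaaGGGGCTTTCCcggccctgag
NFKB2, chr10:102395519-102395548, plus strand: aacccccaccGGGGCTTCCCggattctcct
NFKB2, chr10:102395674-102395703, plus strand: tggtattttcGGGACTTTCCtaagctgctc
REL, chr2:60881517-60881546, plus strand: cgtcagccgcGGGAAATTCCcctcccgcca
NFKBIA, chr14:35404811-35404840, minus strand: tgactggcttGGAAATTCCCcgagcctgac
NFKBIB, chr19:38899931-38899960, plus strand: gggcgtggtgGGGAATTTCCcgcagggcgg
TNFAIP3, chr6:137867188-137867217, plus strand: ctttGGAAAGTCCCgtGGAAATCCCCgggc
TANK, chr2:161136907-161136936, plus strand: atttctcagtGGAAGTTCCCacttcaacat
NFKB2 held 4 matches in 2 of its 3 promoters, the nearest ending 12 bases before a start site. The 2 TNFAIP3 matches ended 58 and 46 bases before the start and lie in 1 window, and those of NFKB1, REL and TANK ended 40, 38 and 37 bases before theirs. The NFKBIA match ended 72 bases before the start and the NFKBIB match 19 bases, and NFKBIB had another match after its start that is not shown. A match describes the letters only and shows neither binding nor a response in MEG-01 cells.

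Before the members are described, some facts bear on all values. The values are MAS5 signals, in arbitrary units, whose median was 69.1 on the GAS2DN array and 55.6 on the Venus array. A probe set was counted as eligible when the brighter of its 2 signals reached the median of its own array, and the probe set of a gene with the highest mean log2 signal, avoiding those ending in _x_at, which can bind related transcripts, is called its main probe set. A gene was counted as measured when its main probe set was eligible. A gene whose only eligible probe sets were dimmer ones, or ones ending in _x_at even if brighter, was therefore not counted. With these rules 24840 single-gene probe sets were eligible and 13086 genes were measured. The ratio of 3′ to 5′ probe sets was 1.02 on the GAS2DN array and 1.01 on the Venus array for GAPDH, and 2.17 in GAS2DN and 2.32 in Venus for ACTB. GAS2 itself had a signal of 34.7 in GAS2DN cells and 24.3 in Venus cells, below the median of both arrays, and whether its probe set lies in the sequence that GAS2DN carries is not given in the sources used here, so it does not check the labels. Of the markers of the megakaryocyte lineage, 9 of 11 with a probe set were measured, with summed signals of 53970 in GAS2DN and 49987 in Venus cells. GATA1, GATA2 and TAL1, transcription factors of this lineage, were measured on both arrays, while PF4 (25.9 in GAS2DN, 40.8 in Venus) and VWF, genes of mature megakaryocytes, stood below the median of both. Monocyte and macrophage markers summed to 626 in GAS2DN and 432 in Venus cells, 4 of 8 being below the median on both arrays. CD14 was at 4.48 in GAS2DN and 5.13 in Venus, and LYZ at 259 in GAS2DN and 275 in Venus. The main probe set of S100A8 gave 87.0 in GAS2DN and 4.66 in Venus, a log2 ratio of 4.22. With signals below the array median raised to it, this ratio was 0.64. A dimmer S100A8 probe set gave 10.8 in GAS2DN and 16.6 in Venus (-0.62). S100A9 gave 62.5 in GAS2DN and 8.99 in Venus, and FCGR1A 30.9 in GAS2DN and 3.38 in Venus. Neither gene reached the array median in either condition. Raising low signals therefore gave 0.31 for both, the difference between the array medians. ITGAM gave 79.2 in GAS2DN and 49.5 in Venus. The main probe sets of these 4 genes all had Venus signals below the array median. CSF1R was also higher in GAS2DN (91.7 in GAS2DN, 67.6 in Venus), whereas CD163 was lower (11.3 in GAS2DN, 18.1 in Venus). Lymphoid markers summed to 425 in GAS2DN and 306 in Venus cells over 5 genes, and fibroblast markers to 248 in GAS2DN and 209 in Venus cells over 6 genes. No main probe set of these markers was at a signal of 1, the lowest value on the arrays, while 1 dimmer COL3A1 probe set was at 1 in GAS2DN and 11.3 in Venus.

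By their main probe sets 9 of the 10 NF-kB genes lay within 2-fold between GAS2DN and Venus cells, beside 87.6% of all measured genes. Of the 24 member probe sets 21 were eligible, 12 of them higher in GAS2DN and 9 lower, beside 54.6% of all eligible probe sets that were higher in GAS2DN. Their median log2 ratio, GAS2DN over Venus, was 0.13, beside 0.05 over all eligible probe sets, and 16 of the 21 lay within 2-fold, between -0.50 and 0.80, beside 85.4% of all eligible probe sets. By main probe sets 7 of the 10 members were higher in GAS2DN, beside 56.2% of all measured genes. The median over the 10 main probe sets was 0.22, beside 0.06 over all measured genes. NFKB2 alone exceeded 2-fold by its main probe set, and the other main probe sets ran between -0.18 and 0.51.

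**Figure D1:**
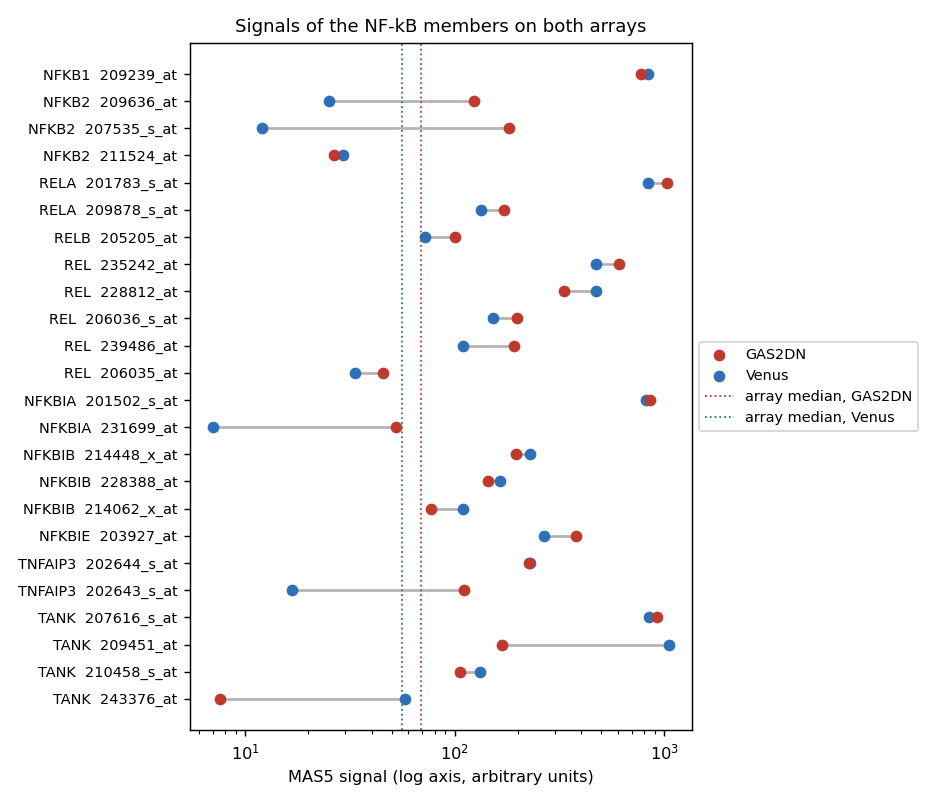
MAS5 signals (log axis, arbitrary units) of all 24 member probe sets on the GAS2DN array (red) and the Venus array (blue), 1 array each, with dotted lines at the array medians of 69.1 (GAS2DN) and 55.6 (Venus). Most pairs of points nearly coincide, and wide gaps appear for NFKB2, for 1 TNFAIP3 probe set and for 2 TANK probe sets, with 1 dim NFKBIA probe set that did not reach the median on either array.

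A total of 5 eligible member probe sets differed by more than 2-fold. Higher in GAS2DN were 3 of 21, of NFKB2 (2) and TNFAIP3 (1), beside 8.51% of all eligible probe sets. Lower in GAS2DN were 2 of 21, both of TANK, beside 6.07%. All 5 also exceeded the 3-fold threshold of the study's methods, which 4.96% of all eligible probe sets passed as higher in GAS2DN and 3.36% as lower. With so few probe sets, nothing particular to the members was read from these counts. The split of the background itself moved with the scaling. Of all eligible probe sets beyond 2-fold 58.3% were higher in GAS2DN as deposited, 46.0% after loess scaling and 47.0% after quantile normalization. The members stayed at 3 higher and 2 lower under both. Their 5 ratios lay far beyond 2-fold, so this count could hardly move.

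The subunits were mostly a little higher in GAS2DN cells. Of their 12 probe sets 10 were eligible, and 8 of these were higher in GAS2DN, beside 54.6% of all eligible probe sets. The median log2 ratio of the 10 was 0.37, beside 0.05 over all eligible probe sets. Over the 8 whose signals both reached the median it was 0.36. The probe sets that were higher belonged to NFKB2, RELA, REL and RELB. Dim probe sets in general leaned higher in GAS2DN, with a median of 0.30 at the signal of the main NFKB2 probe set and 0.21 at that of RELB. NFKB1, whose product p105 is the precursor of p50, had 1 probe set, with signals of 776 in GAS2DN and 833 in Venus, a log2 ratio of -0.10. RELA encodes p65, the subunit that carries the activation domain of the common p50 dimer. Its main probe set gave 1027 in GAS2DN and 834 in Venus (log2 ratio 0.30). Its other probe set gave 171 in GAS2DN and 133 in Venus (0.36), and the mean of both was 0.33 ± 0.04 (SD over 2 probe sets of 1 gene, which is not a replicate error). RELB, the partner of p52 in the non-canonical pathway, had 99.7 in GAS2DN and 71.9 in Venus, a log2 ratio of 0.47 that came to 0.23 after loess scaling. These differences were all smaller than the spread of probe sets of like signal, since percentiles 5 and 95 of the log2 ratio lay at -0.67 and 0.51 for NFKB1, at -0.59 and 0.46 for the main probe set of RELA, and at -1.07 and 1.44 for RELB.

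REL, encoding c-Rel, had 5 probe sets that did not run the same way. The main one gave 610 in GAS2DN and 473 in Venus, a log2 ratio of 0.37. A second one gave 333 in GAS2DN and 471 in Venus, a log2 ratio of -0.50. The remaining eligible probe sets were higher in GAS2DN, with 197 in GAS2DN and 152 in Venus (0.38) and 192 in GAS2DN and 110 in Venus (0.80). The mean over the 4 was 0.26 ± 0.55 (SD over probe sets), so their spread exceeded the mean. The fifth probe set was below the median on both arrays, with 45.4 in GAS2DN and 33.2 in Venus.

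NFKB2 was the member with the highest ratio. Its product p100 acts both as an IkB-like inhibitor of RELB dimers and as the precursor of p52. The main probe set, 209636_at, had a signal of 124 in GAS2DN and 25.1 in Venus, a ratio of 4.95 and a log2 ratio of 2.31. The probe set 207535_s_at had 181 in GAS2DN and 12.0 in Venus, a ratio of 15.0 and a log2 ratio of 3.91. Both lay outside percentiles 5 to 95 of probe sets of like signal, which ran from -1.26 to 1.69 for the first and from -1.54 to 2.17 for the second. The GAS2DN signals stood above their array median and the Venus signals below theirs, in the range where the ratio depends on a dim signal. With signals below the array median raised to it, the log2 ratios were 1.16 and 1.70, and with the array median added to every signal they were 1.26 and 1.88. The third probe set, 211524_at, did not reach the median on either array and gave 26.5 in GAS2DN and 29.2 in Venus, a log2 ratio of -0.14. By main probe sets, 7.91% of measured genes were more than 2-fold higher in GAS2DN and 4.45% more than 2-fold lower.

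**Figure D2:**
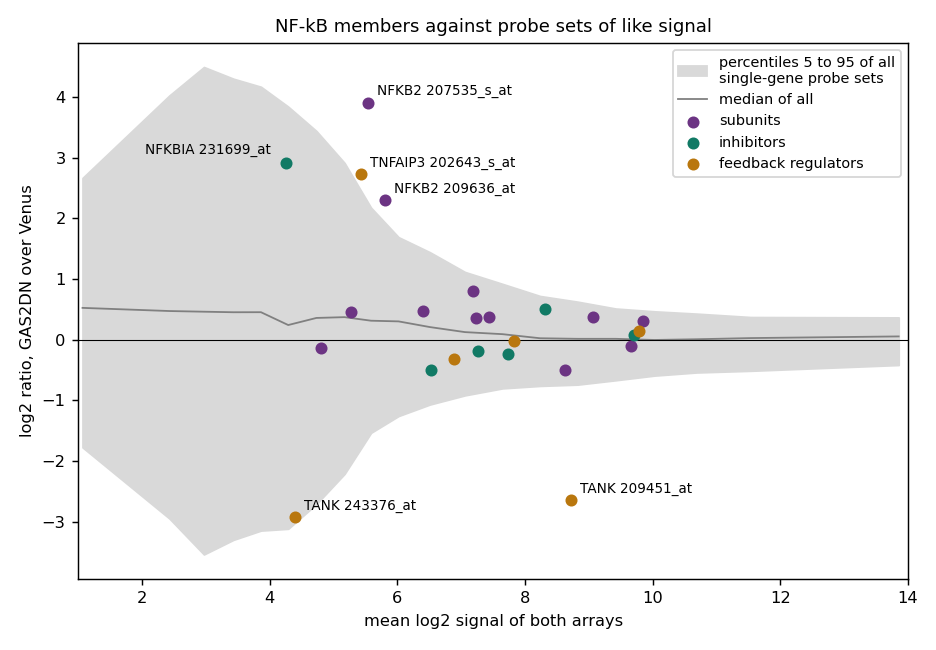
Log2 ratio, GAS2DN over Venus, of the 24 member probe sets against the mean log2 signal of both arrays, with percentiles 5 to 95 of all single-gene probe sets of like signal in grey and members coloured by role. The grey range widens as the signal drops, and 4 member probe sets lie outside it, 3 above (NFKB2 and TNFAIP3) and 1 below (TANK).

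Over the whole array 10% of single-gene probe sets lie outside that range by its construction, and 4 of the 24 member probe sets did. A dimmer TANK probe set and a dimmer NFKBIA probe set, though beyond 2-fold, lay inside it.

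The IkB inhibitors did not differ beyond 2-fold in any of their 5 eligible probe sets. The median was -0.18, with 2 higher and 3 lower in GAS2DN. NFKBIA encodes IkB alpha, the inhibitor that is degraded and resynthesized fastest in the canonical response. Its main probe set gave 855 in GAS2DN and 814 in Venus, a log2 ratio of 0.07. Its other probe set, 231699_at, was below the median on both arrays (52.3 in GAS2DN, 6.99 in Venus), and its log2 ratio of 2.90 lay inside the range of probe sets of like signal, -3.12 to 3.84. NFKBIB encodes IkB beta, which is replaced more slowly. All 3 of its probe sets were lower in GAS2DN, with 145 in GAS2DN and 164 in Venus for the main one (-0.18). The second gave 195 in GAS2DN and 230 in Venus (-0.23) and the third 77.1 in GAS2DN and 109 in Venus (-0.50), a mean of -0.31 ± 0.17 (SD over probe sets). NFKBIE, encoding IkB epsilon, gave 378 in GAS2DN and 266 in Venus, a log2 ratio of 0.51 within the range of -0.76 to 0.72 for its signal.

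TNFAIP3 and TANK both had a main probe set with nearly equal signals and another probe set far from it. TNFAIP3 encodes A20, a ubiquitin-editing enzyme that is induced by NF-kB and shuts off signalling to IKK. Its main probe set, 202644_s_at, gave 226 in GAS2DN and 229 in Venus, a log2 ratio of -0.02. The probe set 202643_s_at gave 111 in GAS2DN and 16.7 in Venus, a ratio of 6.65 and a log2 ratio of 2.73, outside the range of -1.54 to 2.17. Here too the Venus signal was below its array median, and the log2 ratio was 0.998 with low signals raised and 1.32 with the array median added. The mean of both probe sets was 1.36 ± 1.95 (SD over probe sets).

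TANK encodes an adaptor that binds TRAF proteins and links them to the kinases TBK1 and IKK epsilon, and that limits NF-kB signalling in mouse macrophages. The main probe set, 207616_s_at, gave 927 in GAS2DN and 845 in Venus, a log2 ratio of 0.13. The probe set 209451_at gave 168 in GAS2DN and 1054 in Venus, a ratio of 0.160 and a log2 ratio of -2.65. Unlike the other wide differences of the members, both of these signals were above the array medians, so that raising low signals left the log2 ratio at -2.65, and adding the array median gave -2.23. Among the 20496 single-gene probe sets whose 2 signals both reached the median it had the third lowest log2 ratio, and 0.293% of them were more than 3-fold lower in GAS2DN. Percentiles 5 and 95 of probe sets of like signal were -0.74 and 0.62, and probe sets of the same gene differed in that signal range with an SD of 0.56. The probe set 210458_s_at gave 106 in GAS2DN and 131 in Venus, a log2 ratio of -0.31. The probe set 243376_at gave 7.59 in GAS2DN and 57.7 in Venus. Its log2 ratio of -2.93 lay inside the range of -3.12 to 3.84, and turned to 0.26 with low signals raised, since both signals were then at or near array medians that differ. Over the 4 probe sets the mean was -1.44 ± 1.57 (SD over probe sets). Which TANK transcripts each probe set reads was not tested.

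**Figure D3:**
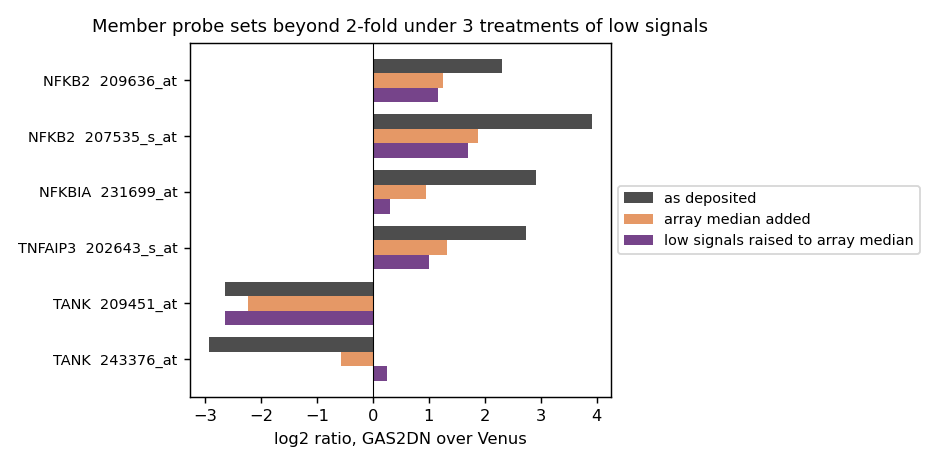
Log2 ratio, GAS2DN over Venus, of the 6 member probe sets beyond 2-fold, as deposited (dark grey), with the array median added to each signal (orange) and with signals below the array median raised to it (purple). TANK 209451_at keeps -2.65 when low signals are raised, the NFKB2 and TNFAIP3 probe sets come to between 0.998 and 1.70, and NFKBIA 231699_at, which did not reach the median on either array, comes to 0.31, the difference between the array medians.

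Such a split between probe sets of 1 gene was also looked for over the whole array. Of the members, 6 had at least 2 eligible probe sets and 5 of these had a main probe set within 1.5-fold. In 2 of these 5, TNFAIP3 and TANK, another eligible probe set differed by more than 3-fold, beside 12.7% of the 5531 genes that met the same conditions. With 5 genes no share could be read from this.

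The partners of TANK had single-gene probe sets of their own and were chosen by their role after the values were seen. TBK1, the kinase that TANK binds, gave 2588 in GAS2DN and 2506 in Venus, a log2 ratio of 0.05. TRAF3, which TANK also binds, gave 917 in GAS2DN and 1285 in Venus by its main probe set (-0.49), and 191 in GAS2DN and 254 in Venus by its other (-0.41). AZI2, an adaptor of the same kinases, gave 1158 in GAS2DN and 1521 in Venus (-0.39), and between -0.46 and 0.30 by its other eligible probe sets. TBKBP1, also an adaptor of TBK1, gave 157 in GAS2DN and 132 in Venus (0.25). Of the A20 partners, TNIP1 gave 2123 in GAS2DN and 1597 in Venus (0.41), and 88.4 in GAS2DN and 37.2 in Venus by a dimmer probe set. RNF11, also one of them, gave 3318 in GAS2DN and 3907 in Venus (-0.24). TAX1BP1, an A20 partner as well, resembled TANK in having probe sets that disagreed, with 3481 in GAS2DN and 3050 in Venus for the main one (0.19). Its second probe set gave 2313 in GAS2DN and 2961 in Venus (-0.36), and its dimmest 76.9 in GAS2DN and 340 in Venus (-2.14).

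The rest of the pathway is given from lists by role. Of 4 other IkB proteins 2 were measured by their main probe sets, and both of these lay within 2-fold. NFKBIZ, an atypical nuclear IkB protein, gave 1674 in GAS2DN and 1551 in Venus (log2 ratio 0.11), with 404 in GAS2DN and 224 in Venus for its other probe set (0.85). NFKBIL1, a protein with IkB-like ankyrin repeats, gave 305 in GAS2DN and 362 in Venus (-0.25). NFKBID, also an atypical nuclear IkB protein, was not counted as measured, since its main probe set was below the median on both arrays (46.3 in GAS2DN, 54.7 in Venus). A dimmer probe set of NFKBID was eligible through its Venus signal, with 12.1 in GAS2DN and 106 in Venus. Its log2 ratio of -3.13 lay outside the range of -2.21 to 2.91 and came to -0.61 with low signals raised.

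Of the IKK complex and the kinases above it, 16 of 20 listed genes were measured, with a median of 0.01. In GAS2DN 8 were higher and 8 lower, beside 56.2% of all measured genes that were higher. The IKK complex itself was close to equal by its main probe sets. IKK alpha (CHUK) gave 1230 in GAS2DN and 1454 in Venus (-0.24). IKK beta (IKBKB) gave 1076 in GAS2DN and 1287 in Venus by its main probe set (-0.26, with 0.15 and 1.18 for its dimmer probe sets). The regulatory subunit NEMO (IKBKG) gave 415 in GAS2DN and 399 in Venus (0.06). MAP3K14, encoding NIK, was below the median on both arrays, with 45.4 in GAS2DN and 12.3 in Venus. Beyond 2-fold was TAB1, a partner of the kinase TAK1, with 236 in GAS2DN and 74.6 in Venus (1.66). IKBKE, the gene of IKK epsilon, was lower in GAS2DN by its main probe set, with 123 in GAS2DN and 260 in Venus (-1.07), whereas its other probe set gave 104 in GAS2DN and 100 in Venus (0.05). MAP3K8, a kinase held by p105, gave 67.9 in GAS2DN and 134 in Venus (-0.99), and its other probe set gave 0.07. MAP3K3 had 0.45 by its main probe set and -0.10 by another. The brightest genes of the list lay within 1.5-fold by their main probe sets. IRAK1, a kinase below Toll-like and interleukin 1 receptors, gave 5377 in GAS2DN and 5521 in Venus (-0.04). Of the protein kinase C genes, PRKCB gave 6613 in GAS2DN and 5432 in Venus (0.28) and PRKCQ gave 3020 in GAS2DN and 2454 in Venus (0.30). The other eligible probe sets of PRKCB did not run together, with 3654 in GAS2DN and 2127 in Venus for the brightest of them (0.78, above the range of -0.51 to 0.37), and -0.25, 0.59 and 3.39 for the rest, the last with a Venus signal of 8.05.

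Of 40 listed adaptors and genes of the ubiquitin machinery 32 were measured, 29 of them within 1.5-fold, beside 76.6% of all measured genes, and the median was 0.05. TRAF5, an adaptor of tumour necrosis factor receptors, was the gene of this list beyond 2-fold, with 1124 in GAS2DN and 556 in Venus (1.02). BIRC2, the ubiquitin ligase cIAP1, gave 5202 in GAS2DN and 3879 in Venus (0.42). SKP1 and RBX1, parts of the ligase that marks IkB for destruction, gave 28127 in GAS2DN and 24537 in Venus (0.20) and 5919 in GAS2DN and 5725 in Venus (0.05). At the low end, TIRAP, an adaptor of Toll-like receptors, gave 103 in GAS2DN and 185 in Venus (-0.84), but its other 3 probe sets lay between 0.09 and 0.37. ITCH, a ligase that works with A20, gave 288 in GAS2DN and 471 in Venus (-0.71), and its other eligible probe sets lay between -0.44 and 0.46.

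Of 28 listed receptors 16 were measured, 12 higher and 4 lower in GAS2DN, with a median of 0.20 beside 0.06 over all measured genes. TNFRSF9, TNFRSF13B, TNFRSF4 and TLR7 passed the filter only through their GAS2DN signals, and TNFRSF11A only through its Venus signal. With no filter on dim probe sets the median log2 ratio over all 28 was 0.06. With both signals required to reach the array median it was 0.11, over 11 genes. The median of 0.20 thus depended on the filter. Of all measured genes 56.2% were higher in GAS2DN, 7.91% more than 2-fold higher and 4.45% more than 2-fold lower. The brightest lay within 1.5-fold by their main probe sets. TNFRSF1A, the main receptor of tumour necrosis factor, gave 1175 in GAS2DN and 1002 in Venus (0.23). TNFRSF10A, a receptor of TRAIL, gave 1944 in GAS2DN and 1722 in Venus (0.18). LTBR, the lymphotoxin beta receptor, gave 1207 in GAS2DN and 1406 in Venus (-0.22), and 0.89 by its other eligible probe set. CD40, a classical activator of the non-canonical pathway, gave 333 in both GAS2DN and Venus by its main probe set. Its other eligible probe sets gave 190 in GAS2DN and 189 in Venus (0.01), 236 in GAS2DN and 160 in Venus (0.57), and 95.2 in GAS2DN and 3.91 in Venus (4.61, above the range of -3.12 to 3.84, and 0.77 with low signals raised). More than 2-fold higher in GAS2DN were TNFRSF13B (80.8 in GAS2DN, 6.28 in Venus, log2 ratio 3.68), TNFRSF9 (72.0 in GAS2DN and 14.2 in Venus, 2.34) and EDAR (257 in GAS2DN and 75.2 in Venus, 1.77). The first pair rested on Venus signals below the array median and came to 0.54 for TNFRSF13B and 0.37 for TNFRSF9 with low signals raised, while EDAR had both signals above the medians. TLR3, a receptor of double-stranded RNA, was lower in GAS2DN, with 128 in GAS2DN and 295 in Venus (-1.21), and its other eligible probe set gave -0.16.

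**Figure D4:**
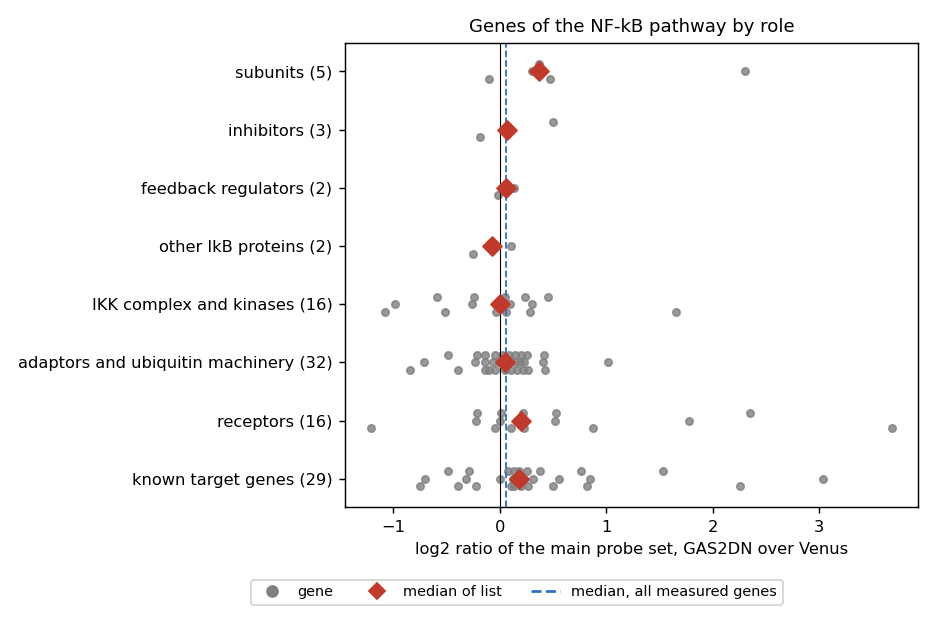
Log2 ratio, GAS2DN over Venus, of the main probe set of each measured gene (grey points, 1 per gene) of the members by role and of the pathway lists, with how many genes were measured in parentheses and the list median as a red diamond. The medians lie between -0.07 and 0.37, the highest that of the subunits, beside the median of all measured genes at 0.06 (dashed). Some genes of the subunits, kinases, adaptors, receptors and targets lie above 1, and IKBKE and TLR3 lie below -1.

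Of 47 known target genes of NF-kB 29 were measured, 22 higher and 7 lower in GAS2DN, beside 56.2% of all measured genes that were higher. The median of the 29 was 0.18, beside 0.06 over all measured genes. In 19 of the 39 target genes with a promoter the kB consensus decamer was found, beside 13.3% of all genes with a promoter. More than 2-fold higher in GAS2DN by their main probe sets were 3 of the 29, CXCL8, TNFAIP6 and ICAM1. None was more than 2-fold lower by its main probe set. The shares over all measured genes were 7.91% and 4.45%, a background near these counts. CXCL8, the chemokine interleukin 8, gave 411 in GAS2DN and 50.1 in Venus by its main probe set (3.03) and 844 in GAS2DN and 304 in Venus by its other (1.47). With low signals raised the main probe set had a log2 ratio of 2.88. TNFAIP6, encoding a hyaluronan-binding protein, gave 103 in GAS2DN and 21.5 in Venus (2.26), which came to 0.89 with low signals raised, and its dimmer probe set gave -2.77. ICAM1, an adhesion molecule, gave 245 in GAS2DN and 84.7 in Venus (1.53), and its other probe sets gave 1.01 and 0.37. BCL2L1, named after its values were seen, gave 1523 in GAS2DN and 1170 in Venus by its main probe set (0.38). Another of its probe sets gave 140 in GAS2DN and 555 in Venus (-1.99, below the range of -0.76 to 0.72). The rest gave -0.41 and -1.79, the last coming to -0.43 with low signals raised.

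The next 3 target genes, chosen after their values were seen, lay between 1.5-fold and 2-fold. IL1B, encoding interleukin 1 beta, gave 1718 in GAS2DN and 1010 in Venus (0.77), with 0.29 by its other probe set. The cytokine IL6 gave 233 in GAS2DN and 132 in Venus (0.82). BCL2A1, an inhibitor of apoptosis of the BCL2 family, gave 112 in GAS2DN and 62.5 in Venus (0.84). The brightest targets lay within 1.5-fold by their main probe sets, with 9960 in GAS2DN and 8664 in Venus for the immunoproteasome subunit PSMB9 (0.20), 4584 in GAS2DN and 4177 in Venus for the peptide transporter TAP1 (0.13), and 3124 in GAS2DN and 2675 in Venus for TNFAIP8 (0.22, with -0.53 and -0.14 by its other eligible probe sets). The lowest ratios were those of CCND1, encoding cyclin D1, with 214 in GAS2DN and 359 in Venus (-0.75) and -0.09 by its other probe set, and of the adhesion receptor CD44. The main probe set of CD44 gave 86.7 in GAS2DN and 141 in Venus (-0.70), while others of its probe sets ran as high as 3.41. That one had a Venus signal of 6.70, lay inside the range of -3.12 to 3.84 and came to 0.36 with low signals raised. Another, with a Venus signal of 17.3, gave 3.03, outside the range of -1.54 to 2.17, and came to 1.34. Target genes that are also expressed by monocytes were not separated from the higher sum of monocyte markers in GAS2DN given above, whose part in these values was not tested.

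**Figure D5:**
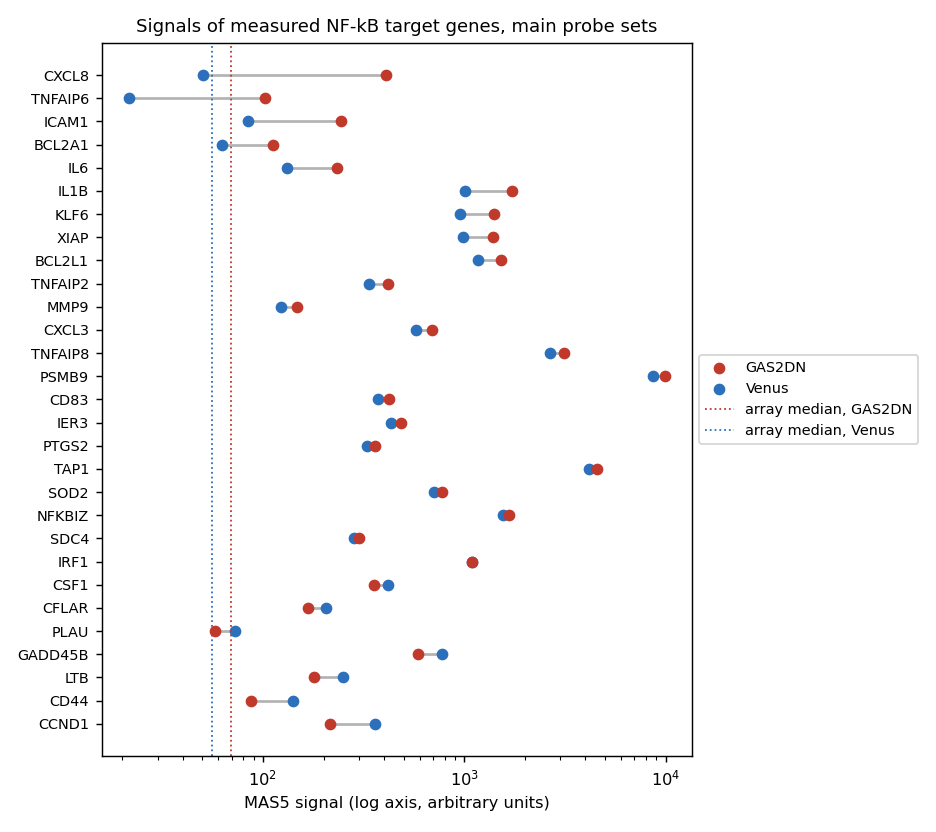
MAS5 signals (log axis, arbitrary units) of the main probe sets of the 29 measured NF-kB target genes on the GAS2DN array (red) and the Venus array (blue), 1 array each, ordered by log2 ratio from the highest at the top, with dotted lines at the array medians. CXCL8, TNFAIP6 and ICAM1 at the top differ by more than 2-fold, and most of the other pairs lie close together.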

How the data were processed

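The authors deposited log2 values of MAS5 signals for 54675 probe sets on 2 arrays, 1 per condition, and the submitters' processing notes name MAS5 without a version. Linear signals had a 2% trimmed mean of 500.1 on both arrays, and no detection calls were used. The lowest log2 value, 0, was held by 121 probe sets on the GAS2DN and 358 on the Venus array. Controls (62) were left out. GEO's platform annotation gave 1 gene for 41091 probe sets, several for 1801 and none for 11721. For 41037 the gene identifier was found in a RefSeq table, from which the current symbol, changed or not, was taken. Log2 ratios are GAS2DN minus Venus, with no further scaling. Ranges of probe sets of like signal are percentiles 5 and 95 within twentieths (20 bins) of mean log2 signal. The members and gene lists were chosen with earlier results of these data known. Named were all members and, of each pathway list, the 3 brightest, 2 highest and 2 lowest measured genes, plus CXCL8. Some listed genes were not analysed here. Other genes named, by their role, as cell markers or for passing 2-fold, were chosen after their values were seen. Alternatives changed the filter, the scaling (quantile, centring, or loess in 3 iterations at span 0.2), the treatment of low signals and the choice of probe sets. Promoters came from a RefSeq table of GRCh38.p14. Counts past a fold, the choice of main probe sets and loess scaling were tested on simulated arrays, with changes placed in bright probe sets only. The treatments of low signals and the promoter search were not tested in this way. Scripts ran in Python 3.11.15 with pandas 2.3.3, numpy 2.4.6, statsmodels 0.14.6 (loess), matplotlib 3.10.9 (plots) and scipy 1.17.1.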

Additional observations from a re-analysis of the deposited data

How the results depend on the processing

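The counts of member probe sets beyond 2-fold and beyond 3-fold were each 3 higher and 2 lower in GAS2DN as reported. With both signals required to reach the median (17 member probe sets), or the brighter signal to reach percentile 75 (7 member probe sets), both counts were 0 higher and 1 lower, the remaining probe set being TANK 209451_at. Adding the array median to every signal, and raising low signals to it, each left 1 probe set more than 2-fold lower, and 1 higher and 1 lower beyond 3-fold. More than 2-fold higher were 3 with the array median added and 2 with low signals raised. Leaving out the _s_at and _x_at kinds of probe set, 1 was higher at both thresholds, and the median log2 ratio was 0.37 over the 7 member genes left and -0.024 over the adaptors, since other genes and probe sets entered. TANK 243376_at turned to 0.26 with low signals raised, because the array median is higher on the GAS2DN array. TANK as a gene was -1.48 by the median over its probe sets and -2.65 without those ending in _s_at, and TNFAIP3 was 1.36 by the median over its probe sets. Centring, loess and quantile scaling left the counts of member probe sets at 3 and 2. No paired analysis was possible because each condition had 1 array. Signals below the array medians limit the ratios of NFKB2, of TNFAIP3 202643_s_at and of TANK 243376_at.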
